A study of Mus musculus with 20 samples.

Results

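Trimethylation of histone H3 at lysine 4 (H3K4me3) was measured against input DNA in control mouse germline stem cells (GSCs), which are spermatogonial stem cells propagated in culture, here on fibroblast feeders. The H3K4me3 group was 2 chromatin immunoprecipitation (ChIP) libraries made with an antibody to the mark, and its reference was 2 libraries of input chromatin from the same kind of cells. Both groups carried Kmt2b F/F, that is floxed and undeleted alleles of an H3K4 methyltransferase gene, together with Rosa26-CreERT2, a Cre recombinase that needs tamoxifen to act. Both had been mock-treated with ethanol and were collected after 6 days, so the Cre gene and the floxed alleles were present on both sides of the comparison. The study used duplicate cell lines, but the labels do not say that a replicate number stands for a line. The p-values therefore measure the spread between these libraries, pooled over windows of like mean level. All 25965 gene windows of the chromatin table were taken, 1 window per gene, from 4 of the 20 libraries of the series, and 25060 windows with a read in at least 1 of the 4 libraries were tested. Where a window lies around its gene, and how wide it is, is not given in the sources used here.

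H3K4me3 sits on nucleosomes around the start sites of transcribed genes. It is written by the SET1 and KMT2 complexes, which are drawn to CpG-rich DNA that carries no DNA methylation, partly through CXXC zinc fingers that bind such DNA. Many CpG-rich promoters of developmental regulators carry the mark while silent, together with the Polycomb mark H3K27me3, whereas promoters with few CpG dinucleotides usually gain it only where the gene is active.

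The DNA just before the annotated start sites of 8 genes is shown to set CpG content beside the mark, as a description. The 250 bases before the RefSeq start (GRCm38.p6, the assembly behind mm10, the build of the tables) are given 5′ to 3′ on the strand of the gene, with each CpG in capitals. The set holds a pair of the most strongly marked genes, a pair of marked germ cell genes, the marked but silent mesoderm gene T, and 3 genes with no enrichment. Their start in the chromatin table lies on the RefSeq start in every case but Alb, where it is 19 bases away.
Rbmxl1 (chr8:78508929-78509178, minus strand, 31 CpG): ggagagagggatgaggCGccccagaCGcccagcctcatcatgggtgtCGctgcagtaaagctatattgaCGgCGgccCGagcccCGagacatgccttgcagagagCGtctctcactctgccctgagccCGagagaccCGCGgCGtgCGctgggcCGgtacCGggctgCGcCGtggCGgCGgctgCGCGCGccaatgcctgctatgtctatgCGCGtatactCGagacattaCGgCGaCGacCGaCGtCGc
Kcmf1 (chr6:72899980-72900229, minus strand, 41 CpG): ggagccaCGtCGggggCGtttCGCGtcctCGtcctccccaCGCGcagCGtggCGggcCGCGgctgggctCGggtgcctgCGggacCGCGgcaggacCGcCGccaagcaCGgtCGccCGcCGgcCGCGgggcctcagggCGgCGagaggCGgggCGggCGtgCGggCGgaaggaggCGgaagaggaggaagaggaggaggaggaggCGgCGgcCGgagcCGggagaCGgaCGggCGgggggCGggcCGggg
Ddx4 (chr13:112652311-112652560, minus strand, 31 CpG): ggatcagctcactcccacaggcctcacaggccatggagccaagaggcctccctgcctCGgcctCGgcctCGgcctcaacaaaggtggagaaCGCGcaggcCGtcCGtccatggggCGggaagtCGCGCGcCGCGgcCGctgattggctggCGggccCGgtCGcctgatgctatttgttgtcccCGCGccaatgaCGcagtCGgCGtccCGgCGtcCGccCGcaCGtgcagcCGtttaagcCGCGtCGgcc
Sycp1 (chr3:102936101-102936350, minus strand, 17 CpG): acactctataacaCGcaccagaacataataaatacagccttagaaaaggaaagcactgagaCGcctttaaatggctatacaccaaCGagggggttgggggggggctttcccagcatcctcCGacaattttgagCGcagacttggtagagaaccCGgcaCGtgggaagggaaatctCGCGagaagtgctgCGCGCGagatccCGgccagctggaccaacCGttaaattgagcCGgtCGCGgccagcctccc
T (chr17:8434173-8434422, plus strand, 14 CpG): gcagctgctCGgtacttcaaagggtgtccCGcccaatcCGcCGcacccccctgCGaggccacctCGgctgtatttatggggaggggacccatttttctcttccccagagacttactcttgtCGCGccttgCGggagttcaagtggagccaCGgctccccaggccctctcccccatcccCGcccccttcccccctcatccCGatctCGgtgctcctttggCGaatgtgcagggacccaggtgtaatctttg
Nanog (chr6:122707239-122707488, plus strand, 3 CpG): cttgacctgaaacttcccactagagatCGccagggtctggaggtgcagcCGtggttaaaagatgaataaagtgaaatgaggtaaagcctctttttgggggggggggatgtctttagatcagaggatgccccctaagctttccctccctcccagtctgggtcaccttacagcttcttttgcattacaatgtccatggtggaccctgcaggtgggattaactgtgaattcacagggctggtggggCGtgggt
Alb (chr5:90460620-90460869, plus strand, 2 CpG): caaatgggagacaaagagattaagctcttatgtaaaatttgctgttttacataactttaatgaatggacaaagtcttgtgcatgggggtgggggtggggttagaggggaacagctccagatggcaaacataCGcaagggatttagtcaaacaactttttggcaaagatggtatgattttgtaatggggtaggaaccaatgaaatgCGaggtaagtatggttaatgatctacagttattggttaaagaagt
Olfr1031 (chr2:85991569-85991818, plus strand, no CpG): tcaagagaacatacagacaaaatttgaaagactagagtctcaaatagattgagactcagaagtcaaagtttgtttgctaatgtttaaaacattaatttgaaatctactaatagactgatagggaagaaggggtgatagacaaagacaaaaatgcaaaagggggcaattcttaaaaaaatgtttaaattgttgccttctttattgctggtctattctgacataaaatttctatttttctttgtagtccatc

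Most gene windows of control GSCs carried H3K4me3. Of the 25060 windows tested, 15705 (62.7%) were higher in H3K4me3 than in input, 2700 (10.8%) were lower and 6655 did not pass the test (limma, Benjamini-Hochberg adjusted p under 0.05 over all windows). The median higher window held 16.9 and 19.4 RPM (reads per 1000000 mapped reads) of H3K4me3, against 0.547 and 0.625 RPM of input, or 175 and 349 reads against 6 and 9. The median lower window held 0.0965 and 0.111 RPM of H3K4me3, against 0.547 and 0.555 RPM of input, so the low end rests on 1 and 2 reads of H3K4me3. Ratios here are differences of log2(RPM + 0.5), a scale that understates the ratio where the input is low. On it 13290 higher windows stood at least 8-fold above input and 241 at least 32-fold.

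The windows fell into 2 separate groups. Some 32.4% had a log2 ratio below 0 and 52.1% had one between 3 and 5, while 3.12% lay between 1 and 2. Both counts moved with the zero point, and that of lower windows the more. When the ChIP libraries were rescaled so that olfactory and vomeronasal receptor windows equalled input at the median, 16417 windows (65.5%) were higher and 108 (0.431%) lower. With limma voom on the recovered reads 15616 (62.3%) were higher and 1357 (5.42%) lower. Without H3K4me3 replicate 1 there were 1291 lower windows, and without replicate 2 there were 951. Of the genes named below as lower, Nanog, Rad21l, Ccdc36, Akap3, Cyp17a1, Ptprc, Tet1, Afp and Zfp445 lost the call after that rescaling (limma adjusted p from 0.0599 at Nanog to 0.763 at Ccdc36), and all of these but Nanog and Afp also lost it without 1 of the H3K4me3 libraries. The rescaling raised the median ratio of all windows by 1.26. Under scaling by the trimmed mean of M values (TMM), which takes most windows to be equal between ChIP and input, the median fell by 3.175, and 7022 windows were higher and 9577 lower. Every ratio below is on the deposited RPM scale and is to be read against the all-window median of 3.28. Likewise, each count of higher windows is to be read against 62.7% of all windows tested and 69.3% of protein-coding ones.

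**Figure D1:**
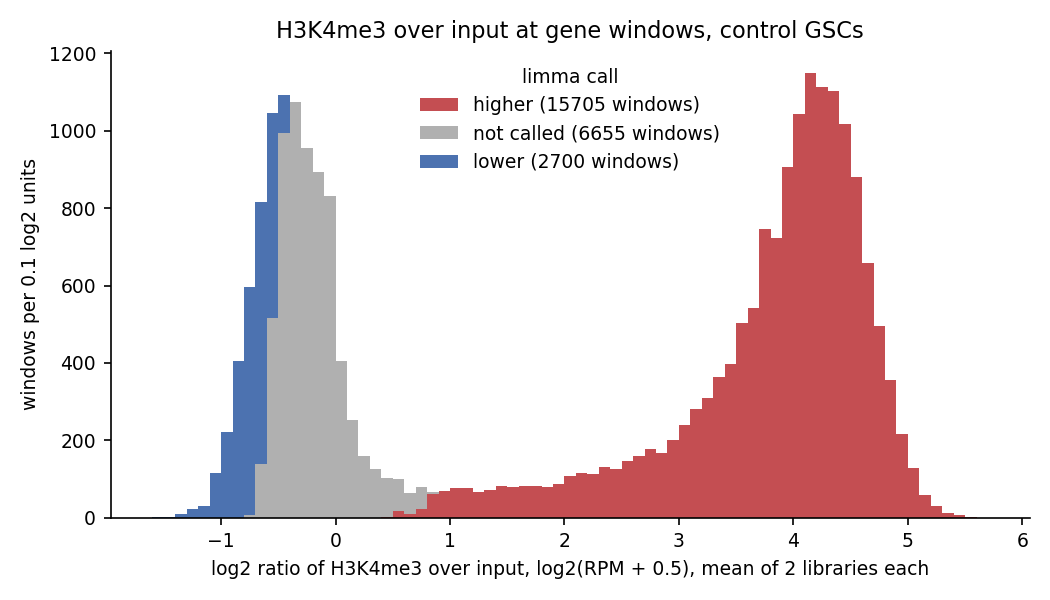
Number of windows (vertical axis, per 0.1 log2 units) by log2 ratio of H3K4me3 over input (horizontal axis), coloured by the limma call at an adjusted p under 0.05. The 15705 higher windows form a peak above 3 and the 2700 lower and 6655 uncalled windows a peak just below 0, with few windows between.

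Worked out from the worth of a single read, the 4 libraries had 10360152 and 18035122 mapped reads for H3K4me3, and 10967790 and 14405261 for input. Reads summed over gene windows came to 25.6% and 29.0% of these for H3K4me3 and 1.37% and 1.42% for input. A read shared between windows counts more than once in these sums. One read was worth 0.0965 and 0.0554 RPM of H3K4me3, against 0.0912 and 0.0694 RPM of input. The 13 mitochondrial windows held no read in these libraries, and 58 of 378 windows of the Y chromosome held any.

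The strongest ratio was at Rbmxl1, a retrogene of the RNA-binding protein gene Rbmx, with 28.2 and 29.7 RPM of H3K4me3 against 0.182 and 0.0694 RPM of input (log2 ratio 5.56, SE 0.25). Its table start lies 407 bases from that of Slc10a7, a member of a solute carrier family, which faces away from it and held place 11 with 29.1 and 33.5 RPM of H3K4me3 against 0.274 and 0.278 RPM of input. Next came Rock1, a kinase that controls the actin cytoskeleton, with 28.7 and 35.9 RPM against 0.274 and 0.139 RPM. Kcmf1, a ubiquitin ligase gene, had 27.6 and 26.1 RPM against 0.0912 and 0.139 RPM. In all of these the H3K4me3 libraries lay far above the inputs and close to each other, while the inputs rested on 1 to 4 reads.

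The others among the 12 strongest were Pan3, part of a deadenylase that shortens mRNA tails; Smad3, which carries TGF-beta signals; Serp1, a membrane protein of the endoplasmic reticulum; Gm8098; 1700025G04Rik; the proteasome subunit gene Psma7; Ss18l1, which encodes a subunit of neuronal chromatin remodelling complexes; and the arginine methyltransferase gene Prmt7. Psma7 and Ss18l1 start 76 bases apart on opposite strands, and had 34.5 and 38.9 RPM against 34.4 and 38.9 RPM of H3K4me3, so reads of these neighbours may be shared between the windows. Over the 12 genes H3K4me3 ran from 26.1 to 38.9 RPM and input from 0 to 0.625 RPM, or 0 to 9 reads. All 12 were transcribed, with RNA from 1.04 to 153.5 RPM in single libraries. The twelfth and thirteenth, Prmt7 and the ribosomal protein gene Rpl36al, both stood at 5.35. The ranking chose these genes, so their ratios are given as a description.

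By the amount of H3K4me3 itself the order was another. Sfi1, a centrosomal protein gene, came first with 161 and 109 RPM of H3K4me3, but with 22.2 and 21.1 RPM of input its log2 ratio was 2.58 (SE 0.38). Its window was also high in H3K27me3 (23.7 and 24.7 RPM) and H3K9me3 (46.4 and 37.6 RPM), for a reason not tested. The predicted gene Gm10800 came next with 61.0 and 64.5 RPM of H3K4me3 against 113 and 96.5 RPM of input, and was not called (log2 ratio -0.73, SE 0.47, limma adjusted p = 0.148). Its direction depended on the input used: against the pair of inputs made with another library kit, which held 15.8 and 23 RPM, the log2 ratio was 1.69. With either matched input left out it was called lower. Then came Hjurp, the chaperone of the centromeric histone CENP-A, with 51.7 and 47.3 RPM against 1.82 and 1.87 RPM, its neighbour Trpm8, whose table start lies 28 bases from that of Hjurp but 29074 bases from its own RefSeq start, and Thap4 with 49.7 and 47.1 RPM against 1.00 and 0.555 RPM. Of the 100 strongest windows by ratio, 21 were among the 100 strongest by level. These 5 genes were named after their values were seen.

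The weakest ratios, among windows with at least 5 input reads, were mostly those of predicted genes, with odorant receptors and genes of other tissues, and with Srek1, a splicing regulator gene that gave 86.3 RPM of RNA. Gm10222, a pseudogene in RefSeq, was lowest, with 1.54 and 1.33 RPM of H3K4me3 against 5.74 and 4.37 RPM of input (log2 ratio -1.51, SE 0.29). It gave 310.3 and 224.5 RPM of RNA, more than Srek1. Against the pair of inputs made with another kit Gm10222 was not called (log2 ratio -0.0772, limma adjusted p = 0.799). Adam21, a membrane metalloprotease gene of the testis, had 1 read in each H3K4me3 library, 0.0965 and 0.0554 RPM, against 1.55 and 0.764 RPM of input. Ptprcap, which encodes a partner of the leukocyte phosphatase CD45, had 0.0965 and 0.0554 RPM against 0.912 and 1.04 RPM. The odorant receptor gene Olfr1031 had 0.0965 and 0 RPM against 1.00 and 0.972 RPM, and Olfr600 had 0 and 0.0554 RPM against 1.46 and 0.555 RPM. In each of these the H3K4me3 libraries lay below both inputs.

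Gm11399, like Gm10222, held more reads than the other weak windows, with 4.44 and 4.99 RPM of H3K4me3 against 12.5 and 13.5 RPM of input. Its row lies within the span of Sfi1. It also stood high in H3K27me3 (11.6 and 12.3 RPM) and H3K9me3 (9.25 and 19.3 RPM). The inputs of another kit held 10.4 and 11.7 RPM. The reason for this high signal was not tested. The remaining members of the 12 weakest were Gm15412, Gm12088, Gm12863, Gm13964, Gm17689 and Srek1. After the rescaling on receptor windows, 8 of the 12 were still called lower, and Gm10222, Gm11399, Gm12088 and Gm12863 were not (limma adjusted p = 0.193, 0.557, 0.0503 and 0.0548). The ranking chose the 12 on these same libraries, so their ratios and calls are given as a description. Over the 100 weakest windows the median input was 0.859 RPM, against 0.538 RPM over all windows. In the pair of inputs made with another kit, which took no part in the ranking, the same windows stood at 0.414 RPM and all windows at 0.429 RPM.

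Replicates agreed on which windows carried the mark and not on the order at either end. Over all windows tested the ratios of the 2 replicates to their same-numbered inputs correlated at Pearson's r = 0.971, a figure carried by the 2 groups of windows. Within the higher windows r was 0.862 for the ratios, 0.980 for the H3K4me3 levels and 0.240 for the inputs, across genes that are not independent. A ratio above 1 was found in both replicates at 15317 windows and in 1 of them at 407. Of the 100 highest ratios in replicate 1, 4 were also among the 100 highest in replicate 2. Their median ratio was 5.42 in replicate 1 and 4.73 in replicate 2, which took no part in choosing them. By H3K4me3 level, 50 of the 100 highest windows were shared. At the weak end 3 of 100 were shared, with a median ratio of -1.36 in replicate 1 and -0.59 in replicate 2.

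**Figure D2:**
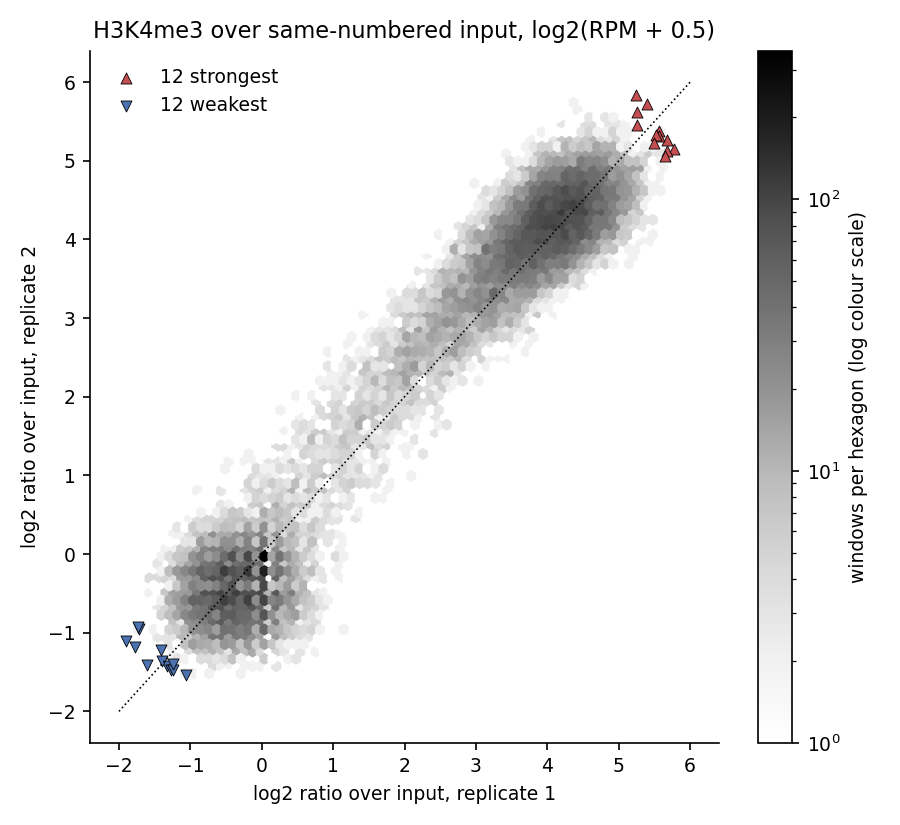
Log2 ratio of H3K4me3 over input in replicate 1 (horizontal) and replicate 2 (vertical) for each window tested, with darker hexagons holding more windows. The 12 strongest (red) and 12 weakest (blue) genes lie at the edges of 2 clouds, in which the replicates share a group more than an order (r = 0.862 within the higher windows).

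Most germ cell genes were marked. All 13 of the germ cell list were higher in H3K4me3 than in input, where 62.7% of all windows were (median log2 ratio 3.95, against 3.28 over all windows), as were 23 of 25 genes of undifferentiated spermatogonia (median 3.91). Dazl, an RNA-binding protein needed for germ cell development, had 27.8 and 29.0 RPM of H3K4me3 against 0.638 and 0.764 RPM of input (log2 ratio 4.59, SE 0.23, limma adjusted p = 7.88e-90). The germ cell RNA helicase gene Ddx4, whose 31 CpG are shown above, had 11.9 and 16.6 RPM against 0.182 and 0.416 RPM. Both genes stood clear of their inputs in each library. The top of the germ cell list was Mov10l1, a helicase of the piRNA pathway that silences transposons, at 4.67, and its lowest member was Nanos3, an RNA-binding protein of primordial germ cells, at 3.09 and 2.22 RPM against 0.0912 and 0.833 RPM (log2 ratio 1.81, SE 0.39).

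Among stem cell genes, Foxo1, a transcription factor of spermatogonial self-renewal, was highest with 24.3 and 30.2 RPM of H3K4me3 against 0.274 and 0.486 RPM of input (log2 ratio 4.98). Zbtb16, the self-renewal factor PLZF, had 27.9 and 26.2 RPM against 0.547 and 0.694 RPM. Of the receptors for the niche factor GDNF, Ret had 17.4 and 19.0 RPM against 0.729 and 0.486 RPM, and its co-receptor Gfra1 had 13.9 and 18.4 RPM against 0.821 and 1.11 RPM. Id4, an inhibitor of helix-loop-helix factors, had 21.4 and 22.2 RPM against 0.456 and 0.694 RPM. The 2 members without a call were Nanos2, a translational repressor of the stem cell state, with 0.579 and 0.333 RPM against 0.274 and 0.694 RPM, and the laminin receptor subunit gene Itga6, with 0.290 and 0.166 RPM against 0.638 and 0.208 RPM. At these 2 windows the ChIP and input libraries overlapped, although Itga6 gave 47.2 RPM of RNA.

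Genes of later stages carried the mark as well. For differentiating spermatogonia 9 of 11 were higher (median 3.85), where 62.7% of all windows were. Among them was the receptor tyrosine kinase gene Kit, with 21.7 and 23.7 RPM of H3K4me3 against 0.274 and 0.902 RPM of input (log2 ratio 4.48). Stra8, the retinoic acid target that opens meiosis, was not called at 0.869 and 1.16 RPM against 0.547 and 0.555 RPM (log2 ratio 0.52, SE 0.39, limma adjusted p = 0.213), although its H3K4me3 libraries lay above the inputs and it gave 132 RPM of RNA. Of 29 genes of meiotic prophase, 27 were higher (median 3.75), against the same 62.7%. The synaptonemal complex genes Sycp1 and Sycp3 had 20.6 and 23.8 RPM against 0.456 and 0.347 RPM, and 24.6 and 21.2 RPM against 0.456 and 0.555 RPM. Spo11, which makes the meiotic DNA breaks, was near the bottom with 1.64 and 2.55 RPM against 0.0912 and 0.694 RPM (log2 ratio 1.60, SE 0.40), and lost its call without input replicate 1 (limma adjusted p = 0.0825). The meiotic cohesin gene Rad21l and Ccdc36, an older name of the break-promoting factor IHO1, were the 2 below input. The table start of Ccdc36 lies 3342 bases from its RefSeq start, and that of Rad21l lies on it.

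Spermatid genes divided. Of 29, 13 were higher and 7 lower (median 0.14), where 62.7% and 10.8% of all windows were. After the rescaling on receptor windows 14 were higher and 0 lower. Crem, a transcription factor of spermatids, was highest at 21.0 and 21.4 RPM of H3K4me3 against 0.456 and 0.416 RPM of input (log2 ratio 4.54). The transition protein gene Tnp1 had 1.25 and 2.27 RPM against 0.0912 and 0.416 RPM (log2 ratio 1.58, SE 0.39). The protamine gene Prm1, which packages sperm DNA, had 0.483 and 0.222 RPM against 0.638 and 1.04 RPM and was not called (limma adjusted p = 0.0856), and Akap3, a scaffold of the sperm tail, was the lowest at 0.193 and 0.277 RPM against 1.00 and 0.555 RPM.

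Of 20 pluripotency genes, 18 were higher (median 3.52), where 62.7% of all windows were. Mycn stood highest at 4.60. Pou5f1, the gene of OCT4, was in the lower part with 4.73 and 7.76 RPM of H3K4me3 against 0.729 and 0.555 RPM of input (log2 ratio 2.53, SE 0.33), and Sox2 had 11.2 and 16.3 RPM against 0.729 and 0.486 RPM (log2 ratio 3.67). Nanog was below input, with 0.193 and 0.0554 RPM against 0.729 and 1.04 RPM (log2 ratio -1.15, SE 0.32, limma adjusted p = 4.73e-04), or 3 reads against 23 over both libraries. After the rescaling on receptor windows Nanog was not called lower (log2 ratio -0.81, limma adjusted p = 0.0599). On the deposited scale the nuclear receptor gene Esrrb was the one member without a call.

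Embryonic regulators were marked while mostly silent. Of 60 embryonic transcription factor genes, 56 were higher (median 3.43), where 62.7% of all windows were. Of the 58 with an RNA row, 18 reached 1 RPM of RNA. At least 2 RPM of H3K27me3 was held by 45 of the 60, against 10.4% of all windows. The neural factor gene Zic2 was highest with 21.7 and 25.3 RPM of H3K4me3 against 0.456 and 0.486 RPM of input (log2 ratio 4.62). It was not silent by that limit, with 1.51 and 1.74 RPM of RNA, and held 1.92 and 1.01 RPM of H3K27me3. T, the mesoderm factor Brachyury, had 12.3 and 14.4 RPM against 0.547 and 0.625 RPM (log2 ratio 3.67, SE 0.27), with 9.99 and 5.22 RPM of H3K27me3 and 0.0598 RPM of RNA. The neurogenic factor gene Neurod1 had 10.1 and 11.5 RPM against 0.729 and 0.902 RPM.

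Of 39 Hox genes, which set positional identity along the body axis, 35 were higher (median 3.00), where 62.7% of all windows were. Hoxb13 was highest with 17.0 and 20.2 RPM of H3K4me3 against 0.182 and 0.416 RPM of input (log2 ratio 4.59). Hoxc4 was lowest at 0 and 0.277 RPM against 0.456 and 0.555 RPM, but its table start lies 15459 bases from its RefSeq start. On chromosome 6, 12 Hoxa windows stood in an unbroken run of 25 higher windows from Nfe2l3 to Hoxa13. At least 2 RPM of H3K27me3 was found at 23 of the 39, against 10.4% of all windows.

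Most lists of genes that every dividing cell uses had medians above the all-window median of 3.28. The median log2 ratio was 4.45 for 85 ribosomal protein genes, 4.41 for 13 RNA polymerase II subunits, 4.39 for 20 spliceosome genes, 4.38 for 58 translation initiation factors, 4.33 for 36 NADH dehydrogenase subunits of respiratory complex I, 4.26 for 76 mitochondrial ribosomal proteins and 4.21 for 39 proteasome subunits. Called higher were 84, 13, 19, 55, 36, 75 and 37 of them, in that order, where 62.7% of all windows were. Called lower were 3 translation initiation factors and 1 proteasome subunit. Of the 85 ribosomal protein windows, 35 lay in the strongest 10% of all windows. Rpl36al had 30.6 and 35.6 RPM of H3K4me3 against 0.456 and 0.208 RPM of input. The one ribosomal protein gene without a call was Rps2, at 0.386 and 0.388 RPM against 0.729 and 0.416 RPM, although it gave 1205 RPM of RNA. Glycolysis genes had 12 of 15 higher (median 3.76), against the same 62.7%. Of the housekeeping genes used as references, Actb had 27.8 and 29.5 RPM against 1.37 and 0.416 RPM, and Gapdh had 10.9 and 13.0 RPM against 0.456 and 0.347 RPM. Gapdh, at a log2 ratio of 3.78, ranked 10029 of the 25060 windows, and its table start lies 694 bases from its RefSeq start.

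All 27 cell cycle genes were higher (median 4.02), where 62.7% of all windows were. They ran from the replication helicase gene Mcm2 at 3.59 to the mitotic kinase gene Plk1 at 4.97. The machinery of the mark itself was strongly marked, with 20 of 22 genes of H3K4 methyltransferase complexes and CXXC readers higher (median 4.37). Kmt2b, listed under its older symbol Wbp7, had 25.6 and 26.4 RPM of H3K4me3 against 0.456 and 0.625 RPM of input (log2 ratio 4.68, SE 0.23). Hcfc1, a scaffold of several such complexes, was highest at 4.84, and Wdr5, their shared core subunit, stood at 4.78. Tet1, a CXXC-domain enzyme that oxidises methylated cytosine, had 0 and 0.111 RPM against 0.365 and 0.486 RPM and was called lower, and Dpy30, another core subunit, had 0.193 and 0.222 RPM against 0.365 and 0.694 RPM without a call.

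Replication-dependent histone genes differed from the other housekeeping lists. Of 64 windows tested 63 were higher, yet their median of 2.98 lay under that of all windows and none was in the strongest 10%. Hist2h2ab was highest with 20.3 and 21.4 RPM of H3K4me3 against 0.274 and 0.694 RPM of input (log2 ratio 4.47). On chromosome 13, 29 of them stood in a run of 38 higher windows ending at Hist1h1a. Their RNA had a median of 2.47 RPM.

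Of 359 zinc finger genes named Zfp, 301 were higher and 15 lower (median 3.96), where 62.7% and 10.8% of all windows were. The list ran from Zfp397 at 5.11 to Zfp445 at -0.96. After the rescaling on receptor windows 305 were higher and 1 lower. The table start of Zfp445 lies 3878 bases from its RefSeq start. Collagens had 35 of 43 higher (median 2.99), against the same 62.7%, with Col25a1 highest at 4.89.

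**Figure D3:**
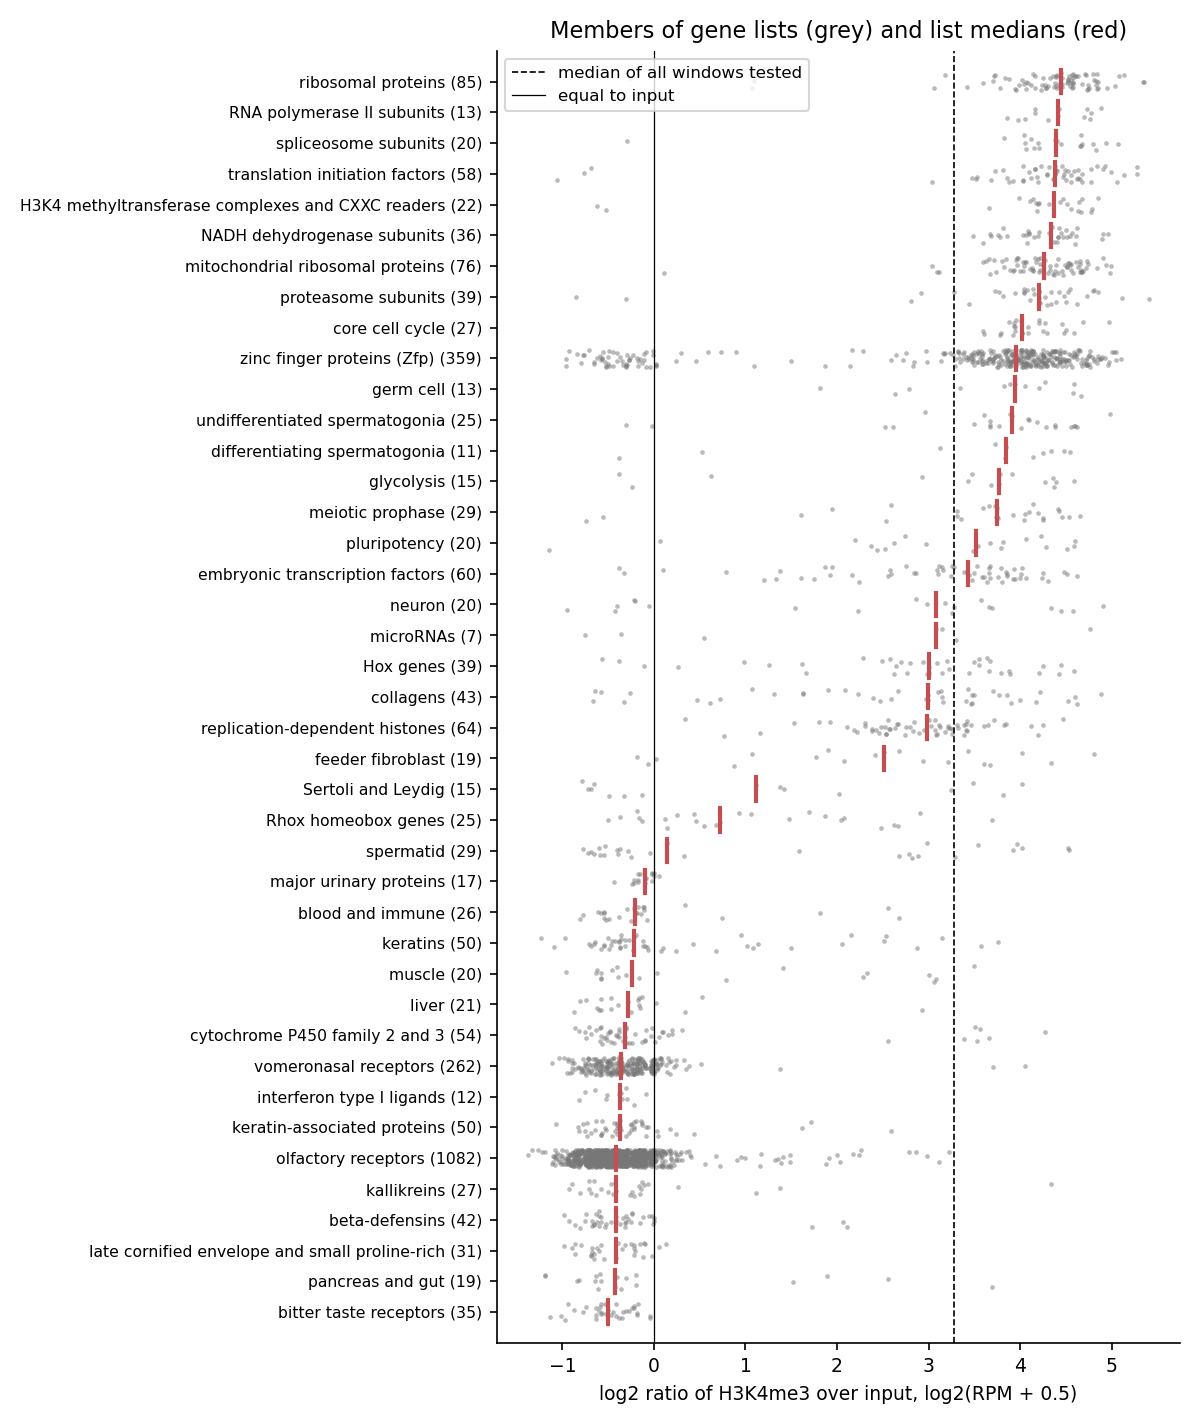
Log2 ratio of H3K4me3 over input for each member (grey) of the 41 gene lists with members tested, listed with the number of members, with the list median in red, the median of all windows as a dashed line and equality with input as a solid line. The lists of ribosomal protein, RNA polymerase II, spliceosome, proteasome and germ cell genes have medians above the all-window median of 3.28, that of replication-dependent histones lies under it, lists of receptors and terminal products lie near 0, and several, such as zinc finger and spermatid genes, have members in both groups.

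Markers of other cell types were mixed. Of 19 fibroblast feeder markers 16 were higher (median 2.52), where 62.7% of all windows were. Their summed H3K4me3 was 144 and 178 RPM against 10.8 and 11.9 RPM of input, and none had an RNA level under 0.1 RPM. The collagen gene Col1a1 had 8.69 and 9.59 RPM of H3K4me3 against 0.365 and 0.416 RPM of input, with 136 RPM of RNA, and Col3a1 had 1.83 and 1.94 RPM against 0.912 and 0.416 RPM (log2 ratio 1.07, SE 0.40), a call that ended without input replicate 2 (log2 ratio 0.76, limma adjusted p = 0.238). Twist1, a mesenchymal transcription factor, was highest at 4.81. The labels do not say how far feeder cells were removed, and their part in these values was not tested. In such a mixture, a few strongly marked cells and many weakly marked ones cannot be told apart.

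Of 15 Sertoli and Leydig cell markers 8 were higher (median 1.11), not far from the 62.7% of all windows, led by the transcription factor genes Sox9 at 4.02 and Wt1 at 3.49. The steroid enzyme gene Cyp17a1 was lower, with 0.0965 and 0.111 RPM of H3K4me3 against 0.456 and 0.625 RPM of input, and gave no RNA read. Blood and immune genes had 3 of 26 higher (median -0.21). The leukocyte gene Ptprc had 0.0965 and 0.0554 RPM against 0.456 and 0.555 RPM and no RNA read, and the T cell receptor subunit gene Cd3e had 0.676 and 0.832 RPM against 0.274 and 0.764 RPM without a call. Among the marked ones were Fcgr3, with 3.08 and 1.92 RPM of H3K27me3, and Cd8a, with 6.36 and 3.66 RPM of it. The table start of Fcgr3 lies 5532 bases from its RefSeq start.

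Among liver genes 1 of 21 was higher (median -0.29). It was Apob, the protein of lipoprotein particles, with 6.08 and 7.71 RPM of H3K4me3 against 0.821 and 0.208 RPM of input. Albumin, Alb, had 0.193 and 0.277 RPM against 0.547 and 0.486 RPM (limma adjusted p = 0.139). For muscle 7 of 20 were higher, among them the master regulator Myod1 with 6.85 and 8.48 RPM against 0.547 and 0.486 RPM, and for pancreas and gut 4 of 19, where the insulin gene Ins2 was not called at 0.0965 and 0.499 RPM against 0.729 and 0.625 RPM. Of neuronal genes 14 of 20 were higher (median 3.09), a share near the 62.7% of all windows. Syt1, the calcium sensor of synaptic vesicles, had 19.5 and 25.3 RPM against 0.182 and 0.347 RPM (log2 ratio 4.90).

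**Figure D4:**
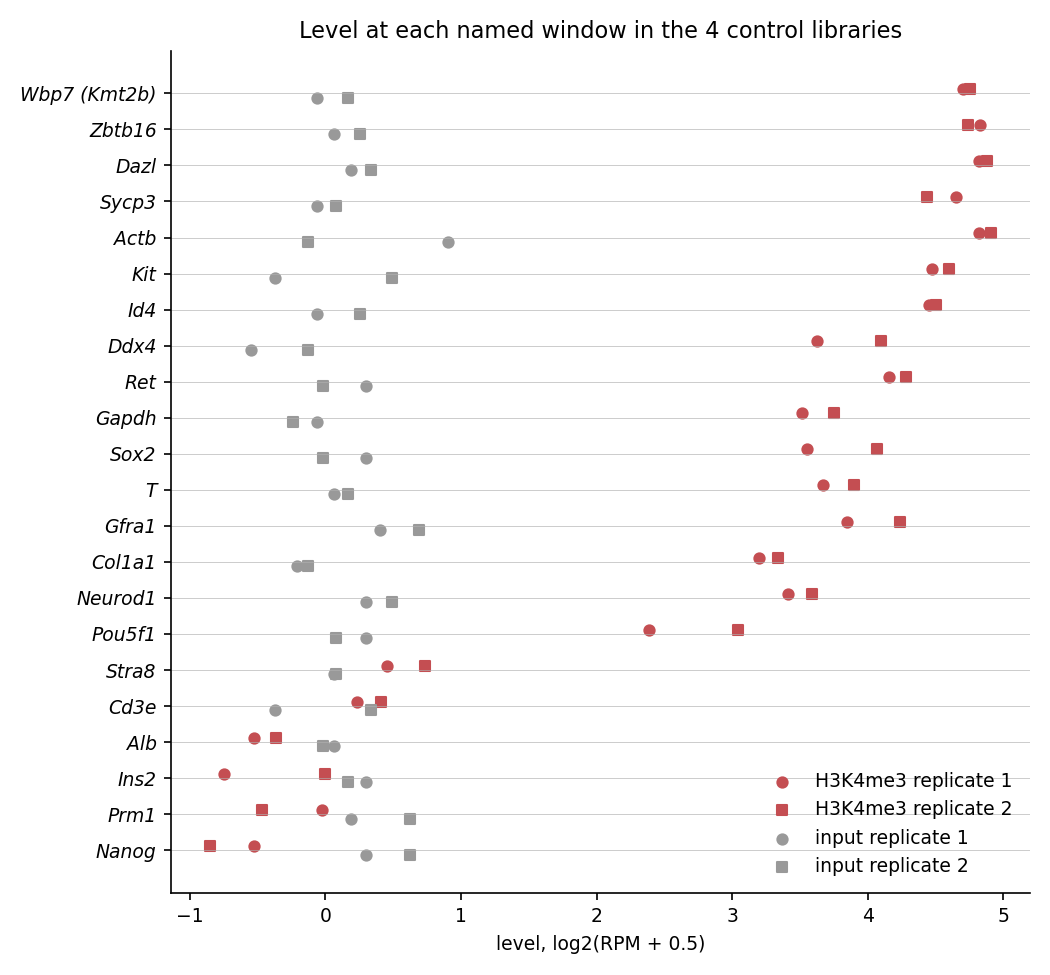
Level on the log2(RPM + 0.5) scale (horizontal axis) of H3K4me3 (red) and input (grey) at 22 genes in replicate 1 (circles) and replicate 2 (squares), ordered by ratio. From Wbp7 (Kmt2b) down to Pou5f1 both H3K4me3 libraries lie above both inputs by a wide margin, and at Nanog, Prm1, Ins2 and Alb they do not lie above them.

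Few windows of large receptor and terminal product families carried the mark. Of 1082 olfactory receptor windows 23 were higher (median -0.41), of 262 vomeronasal receptors 3, of 42 beta-defensins 3, of 50 keratin-associated proteins 3 and of 27 kallikreins 3. No bitter taste receptor (35 tested), major urinary protein (17), type I interferon (12) or late cornified envelope and small proline-rich gene (31) was higher by limma, where 62.7% of all windows were. Their 95 windows held 0 that passed upward even without adjustment (p under 0.05), and voom called 0. Of the olfactory receptors 371 were called lower on the deposited scale, and 13 after the rescaling that takes receptors as its zero. On chromosome 2 the longest stretch without a higher window ran over 210 windows from Olfr996 to Olfr1256, of which 197 were olfactory receptors. Whether the receptor windows cover the starts from which these genes are transcribed was not tested.

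The olfactory receptors that did carry the mark stood in small numbers apart from other marked starts. None of the 23 had a marked start of another gene within 2000 bases. Olfr282 was highest with 6.85 and 9.65 RPM of H3K4me3 against 0.365 and 0.486 RPM of input (log2 ratio 3.23, SE 0.32), and its neighbours on chromosome 15, Olfr281 (2.86) and Olfr283 (1.88), were marked too. At least 2 RPM of H3K27me3 was present at 13 of the 23, and at 17 of all 1082, and 15 of the 23 had no RNA read. Among vomeronasal receptors, Vmn1r4 had 18.4 and 23.6 RPM against 0.821 and 0.764 RPM, but its table start is 90 bases from the marked start of Nt5c3, a nucleotidase gene. These genes were picked from the lists after their values were seen.

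Keratins (13 of 50 higher) and cytochrome P450 genes of families 2 and 3 (7 of 54) held a few strong exceptions. The keratin gene of simple epithelia Krt18 had 9.27 and 11.1 RPM of H3K4me3 against 0.456 and 0.347 RPM of input, with 5.54 and 1.74 RPM of H3K27me3. Cyp2u1, a fatty acid hydroxylase, had 20.5 and 25.2 RPM against 0.638 and 0.764 RPM. The X-linked Rhox genes, homeobox genes of the reproductive tract, had 16 of 25 higher (median 0.72), near the 62.7% of all windows, and Rhox13, a germ cell member, was highest with 15.3 and 13.2 RPM against 0.729 and 0.555 RPM.

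CpG content could be set beside the mark for lists in which at least 80% of tested members had a RefSeq promoter within 500 bases of the table start. Of the 300 bases from 250 before to 50 after the start, the median promoter held 21 CpG for mitochondrial ribosomal proteins, 20 for glycolysis enzymes, 19 for NADH dehydrogenase subunits and 19 for proteasome subunits. It held 1 CpG for olfactory, vomeronasal and bitter taste receptors, late cornified envelope and small proline-rich genes and type I interferons. It held 2 for keratin-associated proteins, kallikreins and cytochrome P450 genes, and 4 for pancreas and gut genes. These counts are for annotated starts, and whether receptor genes are transcribed from those starts was not tested. Histone promoters lay between, at 10.5 CpG. Over 10 equal classes of all windows by ratio, 47.6% to 75.6% had a promoter, so the same check across the whole ranking was void. As in the printed sequences, which run from 41 CpG at Kcmf1 to none at Olfr1031, this is a description of these lists. The printed genes were chosen with these results known. Some strongly marked genes had fewer CpG in their 300 bases, such as Gm8098 (log2 ratio 5.43) with 11 and Syt1 (4.90) with 8.

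RNA of the same control cells followed the ranking. A level of at least 1 RPM was found for 95.4% of genes in the strongest 10% of windows and 16.4% in the weakest, with medians of 36.6 and 0.0243 RPM. Read the other way, 9.90% of genes with no RNA read were marked, 53.0% of those with 0.1 to 1 RPM and 92.6% of those with 10 to 100 RPM. H3K27me3 did not follow it: at least 2 RPM was found at 1.68% of windows in the strongest 10%, 39.1% in the fifth of 10 classes from the weak end, where the median H3K4me3 ratio was 2.74, and 1.48% in the weakest. H3K9me3, a mark of silent heterochromatin, stood at least 2-fold above its own input at no window of the strongest 10% and at 189 of the weakest. These windows share genes with the ranking but the libraries are separate, and no test was made across genes.

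**Figure D5:**
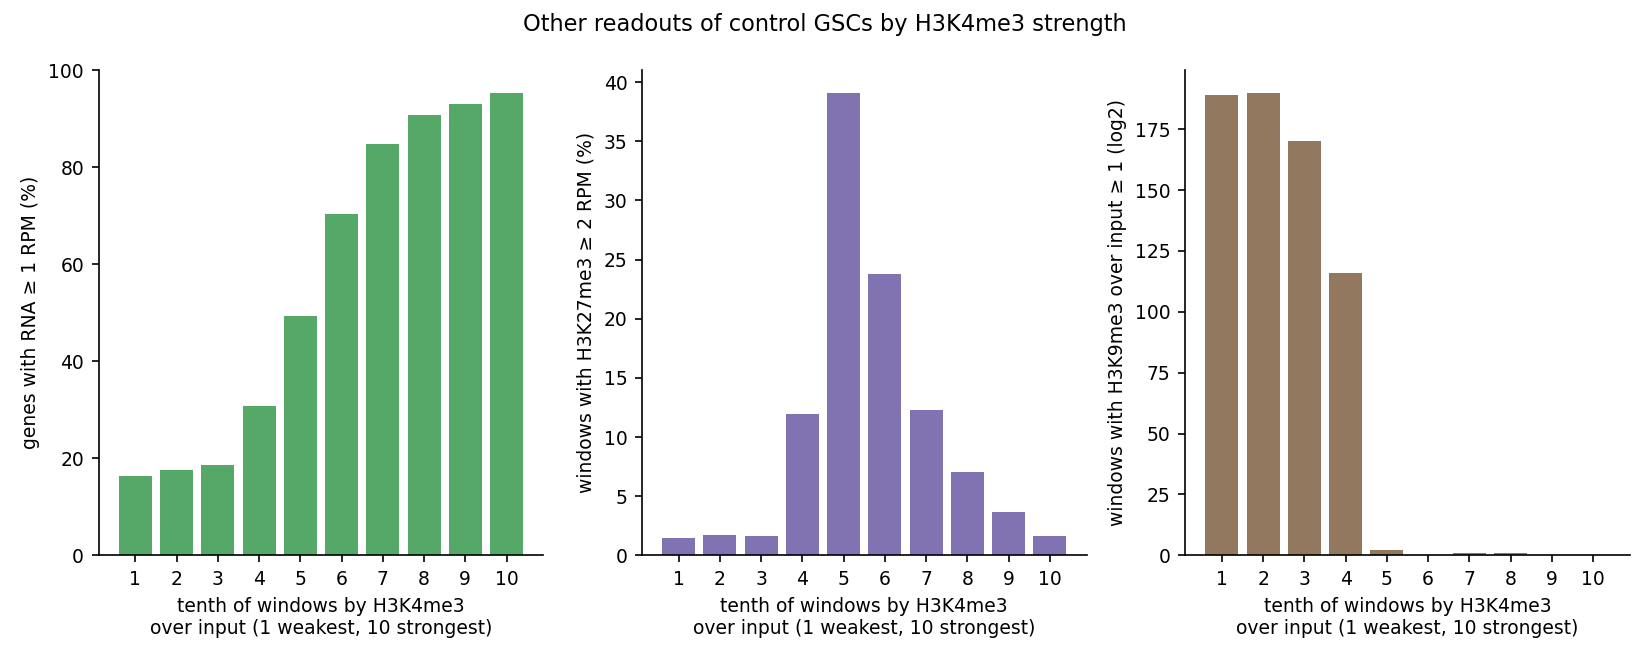
Percent of genes with RNA of at least 1 RPM (left), percent of windows with H3K27me3 of at least 2 RPM (middle) and number of windows with H3K9me3 at least 2-fold above its input (right) by class of windows, 10 of equal size, from the weakest (1) to the strongest (10) H3K4me3 over input. RNA climbs to 95.4% in the strongest class, H3K27me3 peaks at 39.1% in the fifth, and H3K9me3 is found in the 4 weakest classes and almost nowhere else.

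Some transcribed genes were not marked. Of 9063 genes with at least 10 RPM of RNA, 92.0% were higher and 722 were not, of which 171 were called lower and 551 had no call. Among the unmarked ones with a RefSeq start, 400 in number, the start in the chromatin table lay a median of 1670 bases from it, and over 500 bases away for 55.5%. Among the marked ones, 6682 in number, the median distance was 4 bases and 6.32% lay over 500 bases away. Rps2, with its 1205 RPM of RNA, had its table start 1947 bases from the RefSeq start, the glycolytic gene Ldha 4329 bases, the splicing regulator gene Srek1, which was called lower, 10104 bases and Stra8 785 bases. Tet1, also called lower and with 3.61 RPM of RNA outside this group, had its table start 11794 bases away. For others the table start lay on a RefSeq start of the gene, the nearest being taken where there are several. Which start these cells used was not tested. Afp, the fetal counterpart of albumin, gave 44.1 RPM of RNA and was called lower. It had 0 and 0.111 RPM of H3K4me3 against 0.638 and 0.555 RPM of input. The hexokinase gene Hk1 was not called, at 0.0965 and 0.277 RPM against 0.638 and 0.0694 RPM. The H3K4me3 libraries lay below the inputs at Afp and among them at Hk1. Conversely, 112 of 2444 genes in the strongest 10% gave under 1 RPM of RNA.

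By kind of gene, 69.3% of 20047 protein-coding windows, 46.4% of 1814 long non-coding RNAs and 27.9% of 492 pseudogenes were higher. Among chromosomes the share ran from 54.3% on chromosome 7 to 74.5% on chromosome 12, with 62.7% on X, and on Y it was 7 of 58. The longest unbroken run of higher windows held 43 on chromosome 8, from Zfp963 to Ssbp4.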

How the data were processed

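The deposited chromatin table holds log2 RPM per gene window for every ChIP and input library, and the one for RNA, also as the authors deposited it, gives log2 RPM without division by gene length. The submitters' processing notes name mm10, TopHat2 2.0.14, Bowtie 1.1.1, Trim Galore 0.4.0 and CASAVA 1.8, whose roles are not given in the sources used here. The kit used for RNA keeps strand, per the labels' protocols, but the strand setting of the counting is not given, so reads of overlapping antisense genes cannot be told apart. Undoing the log2 gave whole multiples of the worth of 1 read in each library for 100% of values, and windows without a read were set to 0 reads.

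From there, log2(RPM + 0.5) was compared between the 2 H3K4me3 and the 2 input libraries of control cells by limma's two-sided moderated test (limma 3.58.1, R 4.3.3; variance trended on the mean) over the 25060 windows with a read. The spread was pooled over windows of like mean level, so an SE or p-value does not show how closely a gene's own libraries agreed. Actb, with ratios of 3.92 and 5.03 in replicates 1 and 2, had an SE of 0.22. Kcmf1, with 5.57 and 5.38, had 0.26. No count model was fitted, since the tables hold log2 values, so the one foreseen for counts was not used. Replicate numbers were not taken as pairs, because the labels do not tie a number to a line and same-numbered libraries did not deviate together (r = 0.0112). With 2 against 2 libraries an exact permutation test cannot go below p = 0.333, so none is given.

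The genes, lists and alternatives were chosen with earlier results of these data known. Named were the 12 strongest and 12 weakest windows, 22 genes of general interest, and in each list members with the highest and lowest ratio or going against the rest. Some genes are not reported here. Others are said to be chosen after their values were seen, or describe such a gene's neighbours and pathway. Of the windows tested, 20236 matched RefSeq by symbol, 2271 by an older symbol, and 2553 did not match. Sequences are RefSeq's, of GRCm38.p6. Figures were drawn with matplotlib 3.10.9.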

Additional observations from a re-analysis of the deposited data

How the results depend on the processing

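The 15705 higher windows stayed within 1.5 times that count under every alternative but TMM scaling (7022). The 2700 lower windows did not: 13 were left among the 15777 windows of at least 1 RPM of H3K4me3, 108 after the rescaling on receptor windows, 1357 with limma voom on recovered reads and 9577 under TMM, and leaving out 1 library gave 951 to 2201. With the replicate number as a block 15703 windows were higher and 2703 lower, and the pairing changed no call of a named gene. A GC-share alternative to the CpG count was not run, since that check was void. Lists with most of their members higher numbered 25 of 41, and 10 under TMM. Of the 101 genes named with a ratio 66 were called higher, and 40 under TMM. Of the 1000 strongest windows 490 were kept in a ranking by level, 620 by replicate 1 and 563 by replicate 2. Of the 1000 weakest 285, 572 and 463 were kept.

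The sign of the log2 ratio turned at some named genes. Under TMM these were Wt1 (-0.0185), Apob (-0.0326), Myod1 (-0.10), Neurod1 (-0.24), Fcgr3 (-0.45), Cd8a (-0.48), Tnp1 (-0.56), Pou5f1 (-0.60), Nanos3 (-0.65), Spo11 (-0.74), Olfr283 (-1.03), Sfi1 (-1.39), Esrrb (-1.55), Col3a1 (-1.63), Cd3e (-1.80) and Stra8 (-1.85). After the rescaling on receptor windows they were Prm1 (0.0036), Alb (0.079), Ldha (0.16), Hk1 (0.21), Itga6 (0.23), Rps2 (0.45), Gm10800 (0.56) and Nanos2 (0.73). Against the ThruPLEX inputs Esrrb (-0.18) and Gm10800 (1.69) turned, and with limma voom Esrrb (-0.20). With 1 library left out, which leaves 1 library on a side that is assumed to vary like the others, the ratio ran from -0.28 to 0.41 at Esrrb, -0.33 to 0.29 at Nanos2, -0.0142 to 0.69 at Cd3e, -0.65 to 0.0344 at Itga6 and -0.74 to 0.26 at Hk1. Except where the scaling itself moved the zero point, the cause was not tested. The matched inputs, with a median of 6 and 8 reads a window, limit the precision of every ratio.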

Other observations

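The same ratio was set against that of the knockout cells, which had received 4-OHT at 1 μM, as the change in H3K4me3 over input in knockout minus control. By limma's interaction term 0 of 25147 windows passed an adjusted p under 0.05, with 3594 at an unadjusted p under 0.05. Among the genes named here, the lowest limma adjusted p was 0.0522, at T (-2.80) and Apob (-2.51). The lowest for a rise was 0.0757, at Srek1 (1.495). Knockout H3K4me3 replicate 1 had 3830045 mapped reads and no read at 6046 windows. The absence of a call does not show that a window was unchanged.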
